A study of Homo sapiens with 9 samples.

Results

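RUNX1 encodes a DNA-binding transcription factor of blood formation, and its accessible sites were described here in K562 cells, an established human leukaemia line of erythroid and myeloid character. Members were the rows of 9 ATAC-seq peak lists whose centre lay on chromosome 21 between 36150000 and 37390000 (GRCh37), a window that covers the annotated gene (36160098 to 37376965, minus strand). It held 542 of 2164004 rows on chromosomes 1 to 22 and X. ATAC-seq marks open DNA with the Tn5 transposase, and each list gives the peaks of 1 library. A row was called strong when its −log10 p was among the 50000 highest of its list, ties included. The window held 124 strong rows, which merged over the 9 libraries into 39 of the 107091 sites found on all chromosomes.

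The study set 3 genotypes of K562 cells side by side, with 3 libraries each: parental wild type cells, a heterozygous line (STAG2 R614* +/-) and a homozygous line (STAG2 R614* -/-). Both mutant lines were edited with CRISPR-Cas9, and each is a single line. STAG2 is a subunit of cohesin, the ring complex that forms chromatin loops, and R614* replaces an arginine codon by a stop. Per the labels, homozygous cells grew attached and were passaged with trypsin, so genotype, line and attachment cannot be told apart. No treatment, time course or batch is named, the peak lists do not show the mutation, and the labels do not say whether replicates were separate cultures, so p-values may measure technical spread only.

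RUNX1 is transcribed from 2 promoters. The distal promoter, P1, gives the RUNX1c form and is used mainly in definitive blood stem and progenitor cells. The proximal promoter, P2, gives RUNX1b and lies in a CpG island. The long intron between them is known to hold a conserved enhancer of early blood progenitors, at which GATA, TAL1, ETS and RUNX factors bind in other systems. Cohesin and CTCF connect promoters with distal elements by loops, and RUNX1 expression is known to depend on cohesin dose. The annotation used here (GENCODE 44) also has longer RUNX1 transcripts that start far upstream of P1, so 38 of the 39 sites lay within the annotated gene. The starts used were 36421641 for P1 and 36260987 for P2, and sites are numbered S1 to S39 from the 3′ end of the gene towards its 5′ end.

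The sequences below carry the main results: the P2 promoter, the strongest intronic and upstream sites shared by the libraries, the site nearest to P1, and a pair of sites with rows in homozygous libraries alone. Each is 300 bases of GRCh37 placed by the site's strongest row, printed 5′ to 3′ on the plus strand, except for P2. The centre is the row's single or middle summit, or the row's middle where its summits are even in number. S11 is of this last kind, and the nearest summit of that row lies at -179 bp from the centre, outside the printed bases. P2 is the RefSeq promoter sequence (table build GRCh38.p14) from which the 250 bases before the start are shown. The table held 1 RUNX1 promoter, which matched GRCh37 once. Capitals mark exact matches, on either strand, to short consensus strings. The RUNX strings were TGTGGT and, as the other form of this motif, TGCGGT. The GATA strings were AGATAA and, as the other form of this motif, TGATAA. The ETS strings were CCGGAAG and, as the other form of this motif, CAGGAAG. The AP-1 string was TGANTCA, where N is any base, and the core of the CTCF motif was searched too. No string contains another. The matches describe the letters and are not evidence of binding.
P2 promoter, chr21:36260997-36261246, minus strand: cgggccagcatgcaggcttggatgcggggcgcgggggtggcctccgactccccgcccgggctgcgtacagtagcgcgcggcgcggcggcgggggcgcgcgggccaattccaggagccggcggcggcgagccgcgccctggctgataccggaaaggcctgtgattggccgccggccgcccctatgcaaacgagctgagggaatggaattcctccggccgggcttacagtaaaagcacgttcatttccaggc
S8, intron between P1 and P2, chr21:36399108-36399407, plus strand: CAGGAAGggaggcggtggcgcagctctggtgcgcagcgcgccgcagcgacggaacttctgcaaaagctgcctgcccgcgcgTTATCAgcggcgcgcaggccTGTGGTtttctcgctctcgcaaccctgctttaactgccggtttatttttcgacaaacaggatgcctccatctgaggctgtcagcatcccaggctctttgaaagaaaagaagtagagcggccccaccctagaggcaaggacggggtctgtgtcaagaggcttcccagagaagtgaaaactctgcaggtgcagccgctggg
S11, upstream of P1, chr21:36478725-36479024, plus strand: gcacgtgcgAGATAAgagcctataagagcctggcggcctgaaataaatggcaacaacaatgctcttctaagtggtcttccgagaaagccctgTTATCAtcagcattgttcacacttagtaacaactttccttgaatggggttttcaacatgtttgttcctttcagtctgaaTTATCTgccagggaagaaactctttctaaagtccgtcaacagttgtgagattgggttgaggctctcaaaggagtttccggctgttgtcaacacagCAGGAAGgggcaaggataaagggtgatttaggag
S9, nearest site to P1, chr21:36423554-36423853, plus strand: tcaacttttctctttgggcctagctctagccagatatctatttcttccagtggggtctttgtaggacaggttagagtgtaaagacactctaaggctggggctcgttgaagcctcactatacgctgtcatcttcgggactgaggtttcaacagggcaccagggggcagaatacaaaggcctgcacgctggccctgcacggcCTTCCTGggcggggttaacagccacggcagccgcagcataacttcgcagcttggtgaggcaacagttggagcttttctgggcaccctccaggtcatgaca
S26, homozygous rows, chr21:36931469-36931768, plus strand: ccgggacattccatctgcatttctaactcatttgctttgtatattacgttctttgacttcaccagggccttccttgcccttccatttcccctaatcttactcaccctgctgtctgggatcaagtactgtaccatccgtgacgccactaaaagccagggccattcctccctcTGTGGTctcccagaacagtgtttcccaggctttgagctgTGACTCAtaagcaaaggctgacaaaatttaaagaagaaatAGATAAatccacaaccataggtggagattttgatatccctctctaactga
S32, homozygous rows, chr21:37110618-37110917, plus strand: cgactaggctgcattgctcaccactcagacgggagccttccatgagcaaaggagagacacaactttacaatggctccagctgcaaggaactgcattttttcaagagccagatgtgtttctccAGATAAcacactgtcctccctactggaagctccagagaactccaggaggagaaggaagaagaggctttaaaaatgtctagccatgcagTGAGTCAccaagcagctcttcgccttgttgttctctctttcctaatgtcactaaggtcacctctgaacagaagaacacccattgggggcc
P2 is GC-rich, with 71.2% G or C in the printed stretch, and holds no match to any of the strings in the 300 bases of the table. S8 holds 1 RUNX, 1 GATA and 1 ETS match. S11 holds 3 GATA matches and 1 ETS match, and S9 1 ETS match. S26 holds 1 match each for RUNX, AP-1 and GATA, and S32 1 match each for GATA and AP-1.

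Before the values, the libraries need describing. The lists had between 181407 and 319697 rows, and read depth is unknown. Wild type replicates 1 and 2 shared 7 rows with identical start and end in the window, which is 24.1% of the shorter list's rows there (23.2% on all chromosomes). Wild type replicate 3 and heterozygous replicate 1 shared 16, or 45.7% (46% on all chromosomes). These last carry different genotype labels, and the lists cannot show whether the label of either is right. Wild type and heterozygous values thus each rest in part on a library in doubt. Other pairs shared at most 1 row in the window. Tests were therefore repeated with each sharing pair as 1 source, which left 3 homozygous against 4 other sources and a smallest possible p of 0.0286. An adjusted p under 0.05 would need most sites or genes at that value, so these repeats could hardly give a call. As a check of the cell type, starts of the erythroid genes TAL1, HBG1 and HBG2 had a strong row in 9 of 9 libraries, EPOR in 7, and GATA1 and KLF1 in 0. Among markers of other blood cells, CD79A, CD3E and PAX5 had one in 0. Among the markers of adherent cells COL1A1, COL1A2 and EPCAM had one in 9, wild type included, and THY1 and CDH1 in 0, so none of these starts set the homozygous libraries apart.

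P2, the proximal promoter, was open in every library. Within 500 bp of its start, the highest row of wild type replicates 1 to 3 stood at percentiles 85.2, 89.4 and 85.6 of the −log10 p of its own list. Heterozygous replicates 1 to 3 gave 86.7, 79.8 and 80.8, and homozygous replicates 1 to 3 gave 96.1, 95.3 and 85.8. A strong row was present in 9 of 9 libraries, and homozygous replicates 1 and 2 ranked above all the others. Homozygous replicate 3 lay within the wild type range. The means were 86.7 ± 2.34, 82.4 ± 3.73 and 92.4 ± 5.72 (SD, n = 3 each), a homozygous minus wild type difference of 5.67 percentile points. It did not pass the exact permutation test over the 280 assignments of libraries to genotypes (p = 0.0714, adjusted p = 0.281 by Benjamini-Hochberg over all sites). With each sharing pair as 1 source the adjusted p was 0.386.

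The P2 region spans 2677 bp in the merged lists, chromosome 21 from 36260132 to 36262808, and it has a second open stretch at least 1000 bp upstream of the P2 start. The rows at the start and at the upstream stretch were separate in 6 libraries. In wild type replicates 1 to 3 and heterozygous replicate 1, the row at the start ranked 0.4, 1.4, 3.8 and 2.8 points below the upstream row. In homozygous replicates 1 and 2 it ranked 25.1 and 9.2 points above it, at 96.1 against 71 and at 95.3 against 86.1. Joined rows with averaged values occur in these 6 libraries too. The row at the start spans 1493 bp in wild type replicate 3 and 1492 bp in heterozygous replicate 1. The upstream row spans 1275 bp in homozygous replicate 1, so the stretches compared differ in width between libraries. In heterozygous replicates 2 and 3 and homozygous replicate 3, the lists join both stretches in 1 row of 2085, 2490 and 2630 bp with averaged values. The order within the region is thus unknown for 3 libraries, and this contrast, chosen after the values were seen, was not tested.

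P1, the distal promoter, had a row in few libraries. Within 500 bp of its start, wild type replicate 1 had a row at percentile 8.97 and wild type replicate 2 a row at 58.8. The other 7 libraries had no row, and no library had a strong row. With no row set to 0, the homozygous minus wild type difference was -22.6 points (exact permutation p = 0.25, adjusted p = 0.461), which rests on those 2 wild type rows. Wild type replicates 1 and 2 are also a pair that shares intervals.

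The closest accessible site to P1, S9, lay 2.12 kb upstream of it (36423196 to 36424322). Its percentiles were 94.7, 97.8 and 93.5 in wild type replicates 1 to 3, 98.5, 80.1 and 79.6 in heterozygous replicates 1 to 3, and 90.8, 95.4 and 80.6 in homozygous replicates 1 to 3. Heterozygous replicate 1 held the highest value and the other 2 heterozygous libraries the lowest, so the groups overlapped (exact permutation p = 0.454, adjusted p = 0.65). The overlap of heterozygous with wild type values rests on heterozygous replicate 1, which shares rows with wild type replicate 3. Without that library the adjusted p was 0.268 (exact permutation test). The authors' fold enrichment at S9 ran from 4.31 in homozygous replicate 3 to 11.9 in heterozygous replicate 1. A strong row was present in 8 of 9 libraries. The value of homozygous replicate 3 lay under the limit of its strong rows: in the window, the lowest strong row of that list was at 85.5 and its highest weaker row at 83.2.

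**Figure D1:**
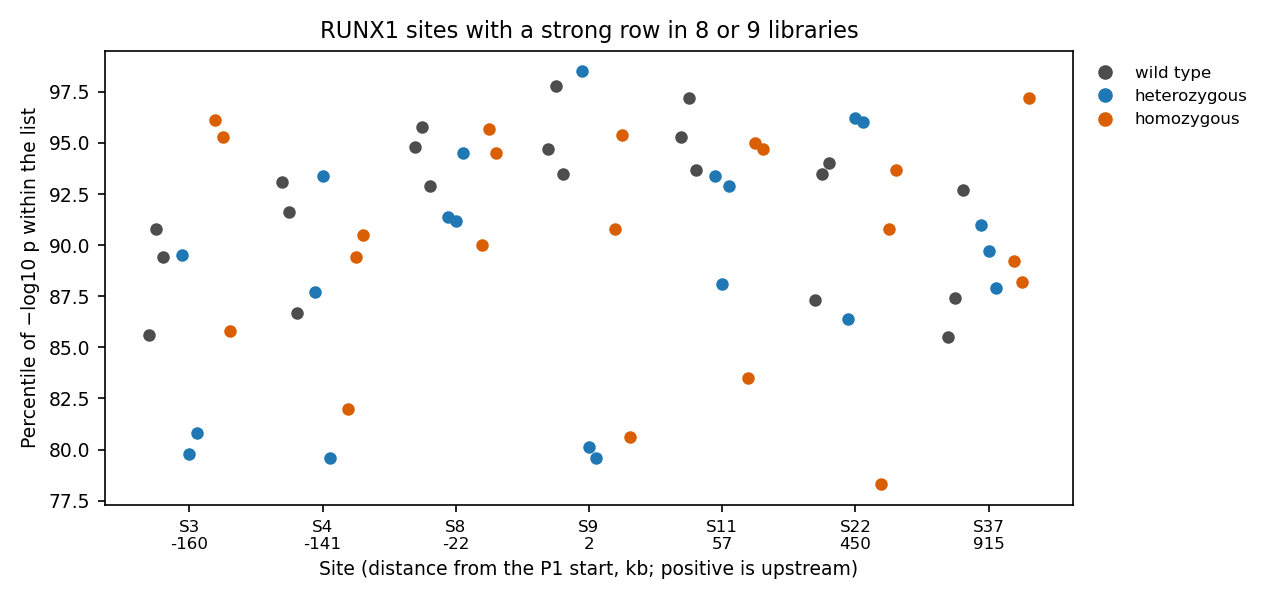
Percentile of −log10 p within each list (y axis, not starting at 0) at the 7 sites with a strong row in 8 or 9 libraries, by distance from the P1 start in kb (x axis). Each point is 1 library, coloured by genotype; the homozygous values overlap those of the other genotypes at every site.

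Of the 39 sites, 6 had a strong row in all 9 libraries: P2 (S3), S4 and S8 between P2 and P1, and S11, S22 and S37 upstream of P1. By position, 2 sites lay downstream of P2, 1 at P2, 5 between P2 and P1 and 31 upstream of P1. Another 18 sites rested on the strong row of 1 library, and in 14 of these it was a homozygous one. How many sites on all chromosomes rest on 1 library was not counted, so these numbers only describe the window and show no trait of RUNX1.

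S8 kept the highest rank over the libraries. It lies 22.3 kb downstream of P1 (36398706 to 36399949), in the intron between the promoters, and overlaps no exon. Wild type replicates 1 to 3 gave 94.8, 95.8 and 92.9, heterozygous replicates 1 to 3 gave 91.4, 91.2 and 94.5, and homozygous replicates 1 to 3 gave 90, 95.7 and 94.5. The lowest of the 9 values was thus 90 and the genotypes overlapped (exact permutation p = 0.504, adjusted p = 0.685). Fold enrichment at S8 was between 6.13 in homozygous replicate 1 and 8.1 in heterozygous replicate 3.

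S4, the other shared intronic site, lies 141 kb downstream of P1 and so close to P2 (36280539 to 36281736). It gave 93.1, 91.6 and 86.7 in wild type, 87.7, 93.4 and 79.6 in heterozygous and 82, 89.4 and 90.5 in homozygous replicates 1 to 3. The highest and the lowest value were both heterozygous (adjusted p = 0.816 by the exact permutation test). Its 300 bases hold 3 GATA matches, and its summit lay within 50 bp of the strongest library's summit in 7 of 9 libraries.

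At the shared sites upstream of P1, the homozygous values overlapped those of the other genotypes. S11, at 57.2 kb upstream (36478402 to 36479324), gave 95.3, 97.2 and 93.7 in wild type, 93.4, 88.1 and 92.9 in heterozygous and 83.5, 95 and 94.7 in homozygous replicates 1 to 3 (exact permutation p = 0.407, adjusted p = 0.609). At S11 the lowest wild type value lay above the highest heterozygous one by less than the spread within either genotype. S22, at 450 kb (36871114 to 36872269), gave 87.3, 93.5 and 94, then 86.4, 96.2 and 96, then 78.3, 90.8 and 93.7 in the same order. Homozygous replicate 1 was the lowest library at both sites. S37, at 915 kb (37335809 to 37336957), gave 85.5, 87.4 and 92.7, then 91, 89.7 and 87.9, then 89.2, 88.2 and 97.2. Its highest value was homozygous replicate 3, while the other 2 homozygous libraries lay among the rest. The adjusted p was 0.763 for S22 and 0.809 for S37 (exact permutation test).

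Site by site, 0 of the 39 passed the adjusted test, as did 0% of all 107091 sites, so the test made no call anywhere. At a site with rows in homozygous libraries alone, the tied values of 0 keep the exact permutation p from falling below 0.0357. An adjusted p under 0.05 would then need most sites at or under that value. Such sites could hardly pass, and their failure to pass is not a negative result. The lowest adjusted p of any site was 0.208. At an unadjusted p under 0.05 the window had 9 sites, or 23.1%, and all chromosomes 21018 sites, or 19.6%, so the window's share was near the background and is not a result about RUNX1.

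Presence told the genotypes apart at few sites. Of 37 sites with a strong row in wild type or homozygous libraries, 0 had one in 3 of 3 homozygous and 0 of 3 wild type libraries, where the share of all such sites was 2.54%. In the opposite direction 1 did, S34, where the background was 3.64%, so the share was no larger than elsewhere. S34 lies 849 kb upstream of P1 (37270409 to 37271012) and overlaps an exon of FKSG68. It gave 83.5, 83.9 and 86.2 in wild type, 82.4, 19.6 and 66.7 in heterozygous, and 67, no row and 62.3 in homozygous replicates 1 to 3. The homozygous libraries thus held weaker rows there in 2 of 3 cases, and the whole-table test gave an adjusted p of 0.469 (exact permutation test).

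With these strong rows, the heterozygous line gave no such site against either genotype. Among 19 sites with a strong row in wild type or heterozygous libraries, 0 were in 3 of 3 heterozygous and 0 of 3 wild type libraries (background 0.268%), and 0 the other way (background 0.595%). Among 37 sites with one in heterozygous or homozygous libraries, 0 were in 3 of 3 homozygous and 0 of 3 heterozygous libraries (background 3.17%), and 0 the other way (background 3.41%). These counts depended on the row limit. With the 100000 strongest rows, 8 of 93 sites (8.6%) were in all homozygous and no heterozygous libraries, against 1.98% on all chromosomes, and with the full lists 14 of 225 (6.22%), against 1.46%. Homozygous against wild type gave 6 of 88 sites (6.82%, against 1.75%) and 8 of 230 (3.48%, against 0.958%) in the same settings. Without homozygous replicate 1, 4 of 35 sites were in both remaining homozygous and no heterozygous libraries (11.4%, against 5.39%). Without heterozygous replicate 1, 1 of 19 sites was in all wild type and no heterozygous libraries (5.26%, against 2.66%).

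Sites where the 3 homozygous percentiles all lay above the other 6 were more frequent here than over the genome. There were 8 of 39, or 20.5%, against 7.79% of all sites, and 0 with all 3 homozygous values below the others, against 8.67%. The 8 are S1 and S2 downstream of P2, S5 in the intron between the promoters, and S24, S25, S26, S29 and S32 between 471 and 689 kb upstream of P1. They were chosen for this order, so their values are a description and carry no test. No site of the 8 had a strong row in all 3 homozygous libraries, and over the 8 sites these libraries had 12 strong rows, the other rows being weaker ones. When percentiles were taken among strong rows alone, 0 sites kept this order. For the 8 sites this was fixed in advance, since each lacks a strong row in some homozygous library. With the 20000 strongest rows, which form another and smaller set of sites, 1 site had it. The share of all sites was not counted in that setting.

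At 5 of the 8 sites none of the other 6 libraries had a row, and S26 and S32 had the highest ranks of these in their weakest homozygous library. S26 lies 510 kb upstream of P1 (36931369 to 36931883), and homozygous replicates 1 to 3 gave 94, 81.7 and 70.7. S32 lies 689 kb upstream (37110503 to 37111017) and gave 56.4, 87.2 and 86.6. S1, S5 and S24 likewise had no row in wild type and heterozygous libraries. S1 gave 28.2, 40.7 and 93.4 in homozygous replicates 1 to 3, S5 gave 18.5, 71.1 and 86, and S24 gave 76.7, 49.5 and 62.3. The homozygous libraries themselves differed most at S1 and S5, where replicate 1 was the lowest and replicate 3 the highest. The other 3 sites had a weaker wild type row. S25 gave 47.6 and 15.4 in wild type replicates 1 and 2 against 72.1, 88.4 and 87.9 in homozygous replicates 1 to 3. S29 gave 43.9 in wild type replicate 2 against 81.5, 57.5 and 87.3. S2 gave 66.6 in wild type replicate 2 against 67, 81.7 and 80, so its lowest homozygous value barely exceeded the wild type one.

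**Figure D2:**
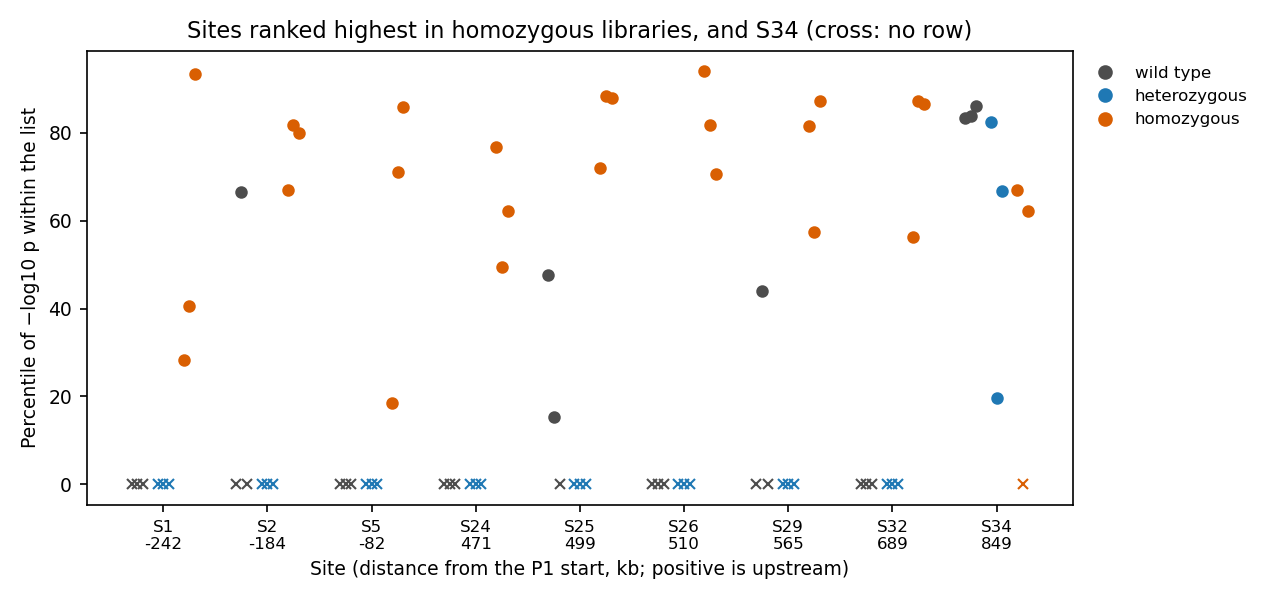
Percentile of −log10 p within each list (y axis) at the 8 sites with all 3 homozygous values above the other 6, and at S34, by distance from the P1 start in kb (x axis). Each point is 1 library, coloured by genotype, and a cross at 0 stands for no row; at 5 of the 8 sites every wild type and heterozygous library has a cross.

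In percentage points, the share of sites with a consensus string was furthest from that of all sites for AP-1. RUNX strings lay in 12 sites (30.8%, against 27.4% of all sites and 19.6% of RefSeq promoters) and GATA strings in 14 (35.9%, against 31% and 16.3%). ETS strings lay in 5 (12.8%, against 16.2% and 21.8%) and CTCF in 1 (2.56%, against 6.34% and 4.64%). AP-1 strings, bound by FOS and JUN family dimers, lay in 13 (33.3%, against 17.8% and 7.71%). Of these 13, 4 were among the 8 sites ranked highest in homozygous libraries and 0 among the 6 sites strong in all libraries. GATA strings lay in 4 of those 8 and 3 of those 6, and RUNX strings in 4 and 2. These are counts of letters, with no test.

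The full lists showed a wider difference than the strong rows. Strong rows in the window numbered 11, 13 and 15 in wild type, 14, 10 and 9 in heterozygous and 12, 20 and 20 in homozygous replicates 1 to 3. The means were 13 ± 2, 11 ± 2.65 and 17.3 ± 4.62 (SD, n = 3 each), and homozygous replicate 1 lay within the wild type range. For the gene with 10 kb on either side, which counts the same rows, the exact permutation test gave p = 0.146 and an adjusted p of 0.865 over the protein-coding genes with a strong row. Of those genes 0% passed (0 of 18547, with 1473 at an unadjusted p under 0.05).

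All rows numbered 29, 50 and 45 in wild type, 35, 31 and 27 in heterozygous and 68, 91 and 166 in homozygous replicates 1 to 3. Every homozygous library exceeded every other one. The means were 41.3 ± 11, 31 ± 4 and 108 ± 51.2 (SD, n = 3 each), so homozygous minus wild type was 67 rows. The exact permutation p was 0.0107, and adjusted over all 19959 protein-coding genes with a row it was 0.346, which does not pass. With each sharing pair as 1 source the adjusted p was 0.251. Of all these genes 0% passed with the homozygous mean highest (2377 had an unadjusted p under 0.05), and 6.75% had all 3 homozygous libraries above the other 6.

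Homozygous replicate 3 had the longest list and homozygous replicates 1 and 2 had lists among the shortest, and the part of list length in these counts was not tested. As a share of its list, the window took between 0.013% and 0.0165% in the 6 other libraries. It took 0.0375%, 0.0459% and 0.0519% in homozygous replicates 1 to 3. With every list cut to its 181407 strongest rows, a setting chosen after the data were seen, the 6 others had between 27 and 38 rows and homozygous replicates 1 to 3 had 68, 89 and 121. With the 100000 strongest rows the counts were at most 25 in the others and 40, 53 and 47 in homozygous libraries. With the 20000 strongest they were between 2 and 4, and 5 in each homozygous library. With rows at −log10 q of at least 5, they were between 5 and 11 in the others and 5, 5 and 14 in homozygous libraries, which then overlapped.

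**Figure D3:**
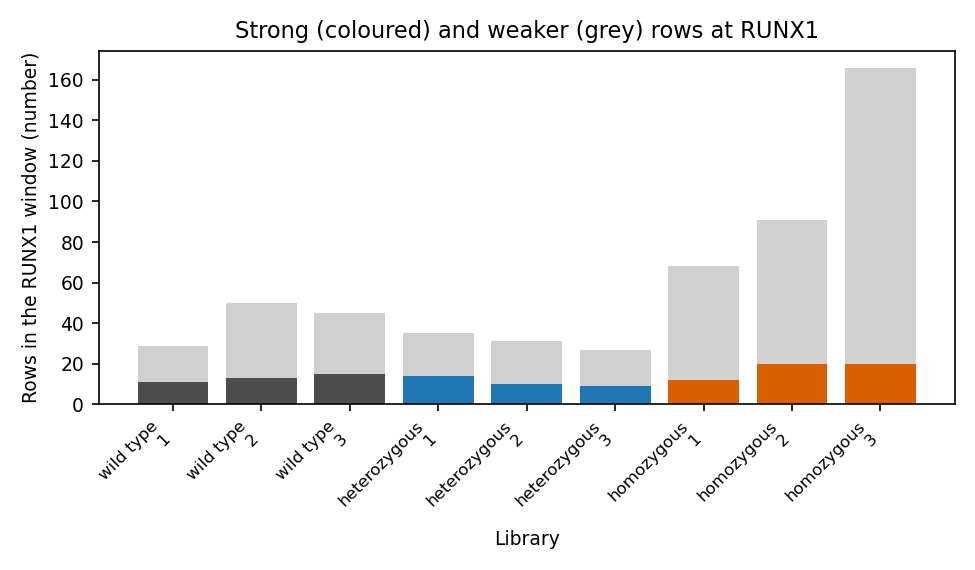
Number of rows in the RUNX1 window (y axis) in each library (x axis), with strong rows as the coloured lower part of each bar and weaker rows as the grey upper part. The 3 homozygous bars reach 68, 91 and 166 and the other 6 between 27 and 50, mainly through weaker rows.

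Row names hold the same word form in the 3 wild type libraries and heterozygous replicate 1, and another in the other 5. Its meaning is not given. All homozygous libraries have the second form, so in homozygous against wild type comparisons name form and genotype cannot be told apart. Within the second form, heterozygous replicates 2 and 3 had 31 and 27 rows and homozygous replicates 1 to 3 had 68, 91 and 166.

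Weaker rows made up most of the higher homozygous counts and were spread along the locus. Weaker rows averaged 28.3 ± 9.61, 20 ± 1.73 and 91 ± 48.2 in wild type, heterozygous and homozygous libraries (SD, n = 3 each). Merged over the full lists, the window held 234 sites, and 161 of them (68.8%) had rows in homozygous libraries alone, against 26.4% of 738271 sites on all chromosomes. Of the 161, 136 rested on 1 library, with 84 from homozygous replicate 3, 36 from replicate 2 and 16 from replicate 1. The 3 homozygous libraries shared 8 of them, which is 3.42% of the window's sites against 0.638% of all sites. Sites with a row in all 6 other libraries and in 0 of 3 homozygous numbered 0, where the background was 0.462%.

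Upstream of P1 the homozygous libraries had 46, 67 and 127 rows and the others between 18 and 33. Between P2 and P1 they had 12, 18 and 21 rows, and the others between 5 and 10. Downstream of P2 they had 9, 4 and 17 rows against 0 to 4, where homozygous replicate 2 equalled wild type replicate 2. At P2 itself, within 1 kb of the start, every library had 1 or 2 rows. In 100 kb bins, all 3 homozygous libraries exceeded the other 6 in 5 of 12 (41.7%), against 6.08% of the 28377 such bins with a row on all chromosomes. One of these, from 628 to 728 kb upstream of P1, had 0 rows in each of the 6 other libraries and 3, 3 and 9 in homozygous replicates 1 to 3.

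**Figure D4:**
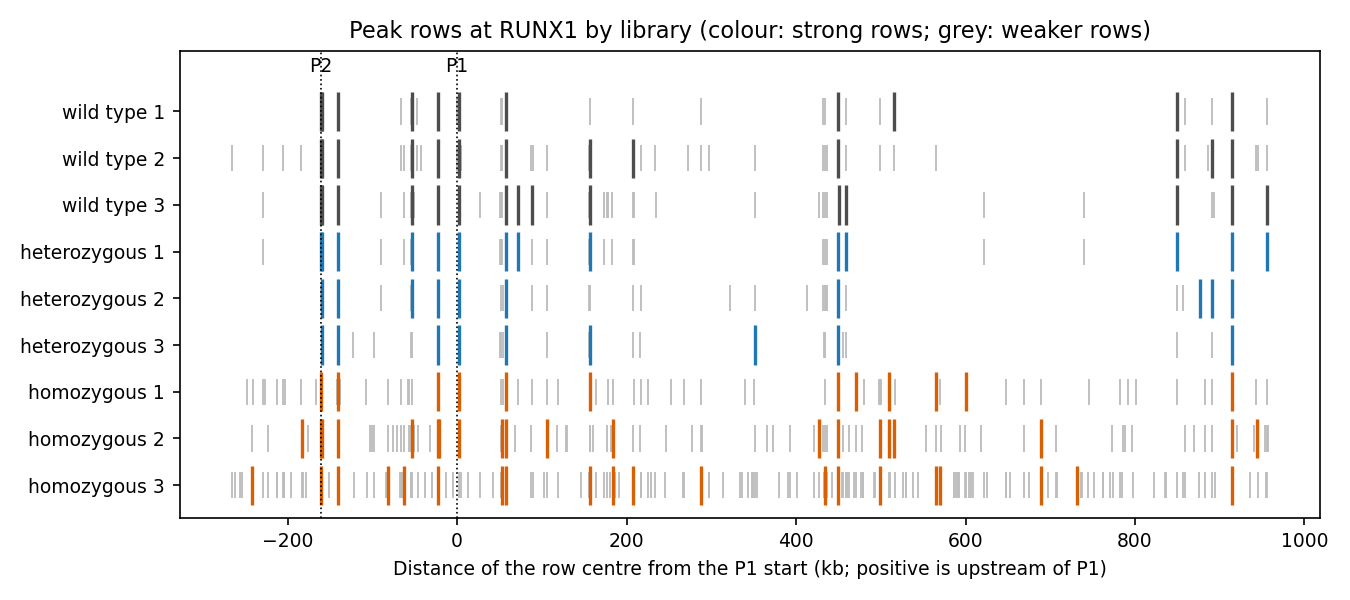
Position of each row's centre relative to the P1 start (x axis, kb, positive is upstream) in each library (y axis). Coloured marks are strong rows, grey marks weaker rows and dotted lines the P1 and P2 starts; strong marks at P2 and near P1 recur in all genotypes, while homozygous libraries have more grey marks along the locus.

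The neighbourhood of RUNX1 moved with it. Chromosome 21 has 38 windows of 1 Mb with 20 or more rows, and all 3 homozygous libraries exceeded the other 6 in rows in 13 of them, every one between Mb 33 and 48. That is 34.2%, against 12.1% of windows on all chromosomes (347 of 2879). Counted by share of the list, which allows for list length, it was 15 of 38 windows, or 39.5%, against 27.6% (794 windows). The mean share of the list in homozygous libraries, divided by that in the other libraries, was 2.8 for the window at Mb 36 and 3.07 for the window at Mb 37, the 2 that hold RUNX1. These rank 4 and 2 on the chromosome, where the 13 windows ran from 1.92 to 3.39, and 20 and 12 among all 2879. This ratio also moved with base composition: its median rose from 0.729 in the tenth of windows with the lowest GC content to 1.63 in the tenth with the highest. The windows at Mb 36 and Mb 37 have 41.9% and 44.4% GC, where the medians were 1.17 and 1.54, and among windows of each of those GC classes 1.06% had a ratio as high. The part of GC content, and of the stretch of chromosome 21 around the gene, in the RUNX1 counts was not tested. The lists hold no read depth, so whether the lines differ in copies of this stretch was not tested either.

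**Figure D5:**
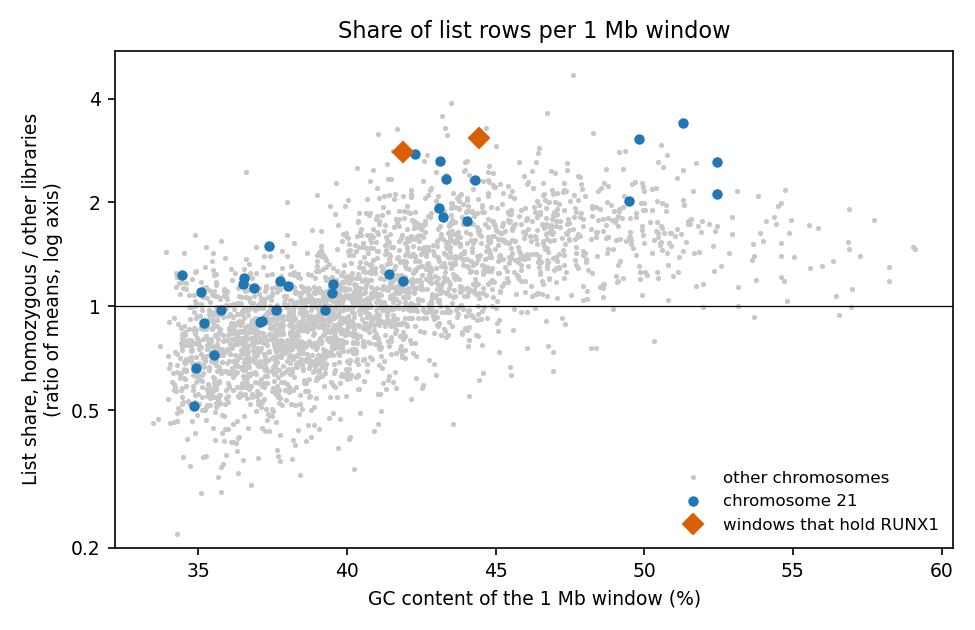
Ratio of the mean list share in homozygous libraries to that in the other libraries (y axis, log scale) against GC content (x axis, percent) for windows of 1 Mb with 20 or more rows. Grey points are other chromosomes, blue points chromosome 21 and diamonds the 2 windows that hold RUNX1, at 2.8 and 3.07, above most windows of like GC content.

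Partners and neighbours of RUNX1 in the blood regulatory circuit were counted in the same way. The list held 16 genes: the paralogs RUNX2 and RUNX3, the cofactor CBFB, the factors TAL1, LYL1, GATA1, GATA2, FLI1, ERG, SPI1, MYB, LDB1 and CBFA2T3, and the targets ITGA2B, PF4 and CSF1R. None passed the adjusted test over all genes in strong rows or in the full lists (exact permutation test), where 2 genes (12.5%) and 1 gene (6.25%) had an unadjusted p under 0.05. The shares over all genes were 7.94% and 11.9%. For TAL1, a helix-loop-helix factor, strong rows numbered 2, 2 and 2 in wild type, 1, 2 and 1 in heterozygous and 4, 5 and 3 in homozygous replicates 1 to 3 (exact permutation p = 0.0143, adjusted p = 0.512). TAL1 was the 1 gene of the 16 (6.25%) with all homozygous libraries highest in strong rows. The share over all genes was not counted for strong rows, so this does not set TAL1 apart. For CBFA2T3, a corepressor of the same complex, they numbered 1, 2 and 3, then 4, 4 and 4, then 2, 2 and 2 (exact permutation p = 0.0357), so the heterozygous line was highest. In the full lists 2 of the 16 genes (12.5%), LDB1 and GATA2, had all homozygous libraries highest, against the 6.75% of all genes given above. LDB1, which bridges GATA1 and TAL1, had 3, 4 and 4 rows, then 4, 4 and 4, then 5, 6 and 6 (exact permutation p = 0.0357, adjusted p = 0.346). ERG, an ETS factor also on chromosome 21, had 7, 8 and 8 rows, then 6, 4 and 3, then 7, 22 and 39 (exact permutation p = 0.0786). Its homozygous replicate 1 did not exceed wild type. The paralog RUNX2, on chromosome 6, had 37, 51 and 54 rows, then 47, 37 and 41, then 30, 30 and 57, so homozygous replicates 1 and 2 were the lowest libraries (adjusted p = 0.902 by the exact permutation test).

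The pattern of RUNX1 across libraries was most like that of a few other long genes. The percent of a gene's sites held by strong rows was compared over the 9 libraries, among 412 genes with at least 20 sites. For RUNX1 it was 25.6, 30.8 and 35.9 in wild type, 33.3, 25.6 and 23.1 in heterozygous and 30.8, 46.2 and 51.3 in homozygous replicates 1 to 3. The 5 nearest genes by root mean square difference were LRMDA at 4.83 percentage points, FHIT at 5.57, KIRREL3 at 5.97, PCNX2 at 6.92 and PLCL2 at 7.77. LRMDA had 39, 43.9 and 43.9 percent in homozygous replicates 1 to 3 and between 22 and 36.6 in the others.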

How the data were processed

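Chromatin accessibility was measured by ATAC-seq on 50000 cells per replicate, with single-end reads of 100 bp, per the labels' protocols. The submitters' processing notes name cutadapt, Bowtie2 2.2.9, Picard, MACS2 2.1.0 and hg19/GRCh37; their settings, and any shift of reads for the Tn5 offset, are not given in the sources used here. Each library has 1 peak list; whether each was called on that library's reads alone is not given. Deposited columns are a display score, a fold enrichment (a linear ratio from the authors' caller), and −log10 p and −log10 q as deposited by the authors. These are the authors' values, used only to rank or describe rows within a list. Most rows are windows of 500 bp, and overlapping windows had been joined with averaged values, which can lower a broad peak's rank. The lists hold no read counts, so depth is unknown and no counting interval is given.

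Strong rows of all libraries were merged on an overlap of 1 bp or more. A library's value at a site was the highest within-list percentile of −log10 p of any overlapping row of its full list, and 0 with no row. The between-genotype sum of squares was tested by exact permutation over 280 assignments (smallest p 0.00357), adjusted by Benjamini-Hochberg over all sites or genes at 0.05; a pair of genotypes cannot go below 0.1. The test was checked on simulated data. Sites named are the promoters, sites that separate a pair of genotypes and the 5 with the highest lowest percentile; S9, S22, the sites with homozygous libraries highest, the parts of P2 and the 1 Mb windows were chosen after their values were seen. The sites, lists and rules were chosen with earlier results of these data known. Analyses used Python 3.11.15, numpy 2.4.6 and pandas 2.3.3. Alternatives changed the number and ranking of rows, the overlap, the promoter width, the libraries and the pairing. Some marker genes of the cell type check are not reported here.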

Additional observations from a re-analysis of the deposited data

How the results depend on the processing

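Over 161 values of the main results under other settings, 140 were rated the same as the main value. For tested differences this meant the same direction and the same side of the threshold. For counts of sites it meant an equal or close count, where 12 against 8 was still rated the same. No setting gave a call by the adjusted test (0 of the window's sites under each). The order with all 3 homozygous libraries highest held at 8 sites, at 1 with the 20000 strongest rows, at 3 with −log10 q of at least 5 and at 0 with percentiles among the strongest rows. Sites that separate homozygous from wild type libraries numbered 1, then 0 with the 20000 strongest rows, 6 with the 100000 strongest (all of them in homozygous libraries, 6.82% against 1.75% of sites on all chromosomes), 8 with the full lists (3.48% against 0.958%), 0 where absence from the full list was required and 8 with all lists cut to the length of the shortest (added after seeing the data; 4.26% against 1.45%). Homozygous against heterozygous gave 0, then 8 with the 100000 strongest (8.6% against 1.98%), 14 with the full lists (6.22% against 1.46%) and 14 with lists of equal length (7.57% against 1.67%). Heterozygous against wild type gave 0, then 1 with lists of equal length (1.52% against 0.483%). Homozygous minus wild type in strong rows at RUNX1 was 4.33, and it was 0 at −log10 q of at least 5, while it was 67 with the full lists (adjusted p from 0.282 to 1 over the settings). The P1 difference was 0 among the strongest rows, where no library has a row at P1. Breaking ties at the last rank by file order, also added after seeing the data, left 8 sites in that order and a difference of 4.67 strong rows.

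Leaving out 1 library at a time, the order held at 7 to 12 sites, and the shares on all chromosomes were not counted. Separating sites ranged from 1 to 5 for homozygous against wild type, from 0 to 1 for heterozygous against wild type (1 without heterozygous replicate 1) and from 0 to 4 for homozygous against heterozygous. Without homozygous replicate 1, 2 or 3, these were 5, 3 and 2 against wild type and 4, 1 and 1 against heterozygous. With fewer libraries the criterion asks for fewer. Against wild type, 4, 1 and 1 were in homozygous libraries (11.4%, 3.12% and 3.33%, against 4.6%, 4.91% and 4.35% on all chromosomes). The other 1, 2 and 1 were in wild type libraries (2.86%, 6.25% and 3.33%, against 5.39%, 5.27% and 5.38%). Against heterozygous, all were in homozygous libraries (11.4%, 3.12% and 3.45%, against 5.39%, 5.72% and 5.12%). The difference in all rows ranged from 38.2 without homozygous replicate 3 to 87.2 without homozygous replicate 1 (exact permutation, adjusted p from 0.234 to 0.611), that in strong rows from 3 to 7, that at P2 from 3.83 to 8.97 and that at P1 from -33.9 to -4.49. Among 304 values of single sites, 302 kept their direction. Many of these could not change. The number of strong rows, a heterozygous library left out, the replicate block and the joined sources do not alter a fixed site's homozygous minus wild type difference. Without homozygous replicate 1 the small differences at S8 (from -2.23 to 0.615 over the libraries left out) and S22 (from -7.08 to 0.637) changed sign. They became 0.615 and 0.637, and the cause was not tested.

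With a replicate block, labels permuted within replicate number (36 assignments), the P2 difference of 5.67 had an adjusted p of 0.414 and the 67 rows one of 0.618. No call changed, but the smallest possible p was 0.0278. An adjusted p under 0.05 would need most sites or genes at that value, so this setting could hardly give a call. Deviations of libraries from their genotype mean were also correlated over sites. For same-numbered libraries of different genotypes, r lay between -0.338 and 0.182. For wild type replicate 3 and heterozygous replicate 1, which differ in number and share intervals, r was 0.414. These values gave no sign of a pairing by number, though centring on genotype means also shapes them. The lists hold no read depth, so an absent row cannot be told apart from one below the caller's limit.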
